A study of Mus musculus with 2 samples.

Results

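The features described here are 3604 transcript models of the mouse adrenal gland that consist of 1 exon, belong to an annotated gene, carry the class Genomic and hold at least 5 reads in their library. They were chosen by class, exon number and read count, so those values are a description and are not tested. Replicate 1 held 2354 of them among 117665 models listed, and replicate 2 held 1250 among 62892, which is 2.00% and 1.99% of the models. The class Genomic is named for reads that overlap a gene and its introns without a matching splice pattern. The positions went against that name. On average 84.8% ± 4.58 of the models (SD, n = 2 libraries) had no base between annotated exons of their gene, with values of 81.5% (79.9% to 83.0%, 95% Wilson interval) for replicate 1 and 88.0% (86.1% to 89.7%) for replicate 2. This count takes the exons of all annotated transcripts of a gene, and bases past the gene's ends do not count as between exons. The models are therefore called single-exon Genomic models and not intronic models.

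The tissue was the adrenal gland of female mice aged 36 days, of the strain B6CASTF1/J, which is the F1 cross of C57BL/6J with CAST/EiJ. The 2 long-read libraries form 1 group, numbered by the labels as biological replicates 1 and 2, with no treatment, other genotype or control group, and RNA spike-ins were added to both. Replicate 1 was made from 1 µg of RNA, and the labels used here give no amount for replicate 2. Label fields disagree on whether both libraries came from the same animal, so the spread and the p-values cover only this pair of libraries and can be technical. There were 1223776 reads in replicate 1, of which 1144572 lay on annotated genes, and 453761 in replicate 2, of which 414588 did. Reads of the steroid enzyme gene Cyp11a1 numbered 23820 and 17150, those of the cholesterol transporter gene Star 12228 and 3648, and those of Th, the catecholamine enzyme of the medulla, 1921 and 479. Cortex and medulla were thus both read. Adipocyte genes were read too, with 2928 and 1123 reads of Car3 and 338 and 129 of Adipoq. Reads of the muscle gene Mb numbered 32 and 0, a count of 0 being taken to allow up to 3 reads. Mb is 1 of 12 skeletal muscle genes looked at, of which 11 were read, so its reads do not stand for muscle as a whole. Intervals and floors in the text cover counting error only, and no molecular identifiers are stated.

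Most messenger RNAs end in a long last exon that holds the stop codon and the 3′ untranslated region. Cleavage and polyadenylation at the end of that exon are directed by a hexamer, most often AATAAA or its variant ATTAAA, that lies shortly upstream of the cut. Long-read protocols commonly prime reverse transcription from the poly(A) tail, and primers of that kind can also pair with A-rich stretches inside RNA. A read without a splice junction can come from within 1 exon, from RNA that keeps its introns or from an intron itself, and its place in the gene separates these cases only in part. The sequence at a model's 3′ end is therefore shown before its reads.

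The first set holds the 30 bases up to the 3′ end of single-exon Genomic models of 7 much-read genes, shown because each holds a hexamer, which is in capitals. They were read from GENCODE M21 transcript sequences of build GRCm38 (mm10) on the strand of the gene. The positions are chr9:58026994-58027023 (+) for Cyp11a1, chr7:19696267-19696296 (-) for Apoe, chr5:30625242-30625271 (+) for Kcnk3, chr3:98852194-98852223 (-) for Hsd3b1, chr19:10062765-10062794 (-) for Fads2, chr10:91116574-91116603 (-) for Slc25a3 and chr8:25815953-25815982 (+) for Star. The hexamer was followed by 15 to 24 bases before the model ended. The Fads2 model itself is 1 base long, at the last base shown.
Cyp11a1: agggagttAATAAAcacttgaacactgagg
Apoe: ttgcttAATAAAgattctccgagcacattc
Kcnk3: cctAATAAAtgctgtccatggagaccaggc
Hsd3b1: aaaaacagcAATAAAtattgtaatgcctta
Fads2: AATAAAaaaaaaaaagtaattttattctca
Slc25a3: atggtttATTAAAtatggataaacactgaa
Star: aagtatATTAAAttgtgttaatagtcattc

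The second set shows 10 bases before and 20 bases after the 3′ end of 4 models whose next 20 bases held at least 12 A, with the longest run of A in capitals. The positions are chr6:127128818-127128847 (+) for Gm43126, chr11:101972941-101972970 (+) for Gm20659, chr10:81151602-81151631 (+) for Zbtb7a and chr12:3249235-3249264 (+) for Rab10os, on the same build. The 20 bases after the end held 19 A for Gm43126, 20 for Gm20659, 17 for Zbtb7a and 15 for Rab10os.
Gm43126: ataattgtgcAAAAAAAAAAAAAcaaaaaa
Gm20659: attctgggccAAAAAAAAAAAAAAAAAAAA
Zbtb7a: ggctgaaaggaaaaatagAAAAAAAAcaaa
Rab10os: atgcttccaccaaaacAAAAAAAgaaaacc

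Over all models, the hexamers AATAAA and ATTAAA were searched on the model's strand in the 50 bases up to its 3′ end, which could be read for 2112 models of replicate 1 and 1165 of replicate 2. They were present in 77.1% and 80.4%. The share was 86.0% and 85.7% where the 3′ end was an annotated transcript end, and 39.4% and 49.4% where it lay more than 50 bases from every annotated end of the gene. The same search found a hexamer at 71.7% of the ends of the most read annotated transcripts and in 4.44% of windows of 50 bases elsewhere along their last exons. At least 12 A in the 20 bases after the 3′ end were found in 12.6% of 816 readable models of replicate 1 and in 10.3% of 390 of replicate 2, against 1.24% of 20-base windows along last exons. Models at an annotated end had 7.61% and 5.45%, and those more than 50 bases away had 18.3% and 17.0%. In both libraries hexamers were more frequent at annotated ends, and A-rich sequence was more frequent away from them. These matches are descriptions of letters, and the part of A-rich sequence in making a read was not tested. The stretch downstream could be read only where it fell in an annotated exon, which was the case for 23.4% and 20.7% of models at an annotated end, for 62.9% and 67.6% of those more than 50 bases away and for 19.7% and 16.2% of those that end in an intron. The shares over all readable models therefore give more weight to models away from annotated ends than the full set would.

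The 3′ ends lay mostly in last exons. For each gene the annotated transcript with the most reads served as reference, and the 3′ end of the model fell in its last exon for 1750 models of replicate 1 (74.3%, interval 72.5% to 76.1%) and 990 of replicate 2 (79.2%, 76.9% to 81.4%), a mean of 76.8% ± 3.44 (SD, n = 2). Both ends lay in the last exon for 67.3% and 74.8%. A 3′ end past the end of the reference transcript came next, with 13.7% and 13.0%, followed by an inner intron with 6.71% and 3.92%, the last intron with 2.12% and 1.52%, and an inner exon with 1.95% and 1.12%. Models that spanned at least 1 whole intron numbered 160 (6.80%) and 53 (4.24%), and models wholly inside 1 intron 108 (4.59%) and 56 (4.48%). Counted by reads, without Cyp11a1, models with both ends in the last exon held 65.1% and 72.5% of the reads, and those inside 1 intron 4.36% and 3.84%.

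**Figure D1:**
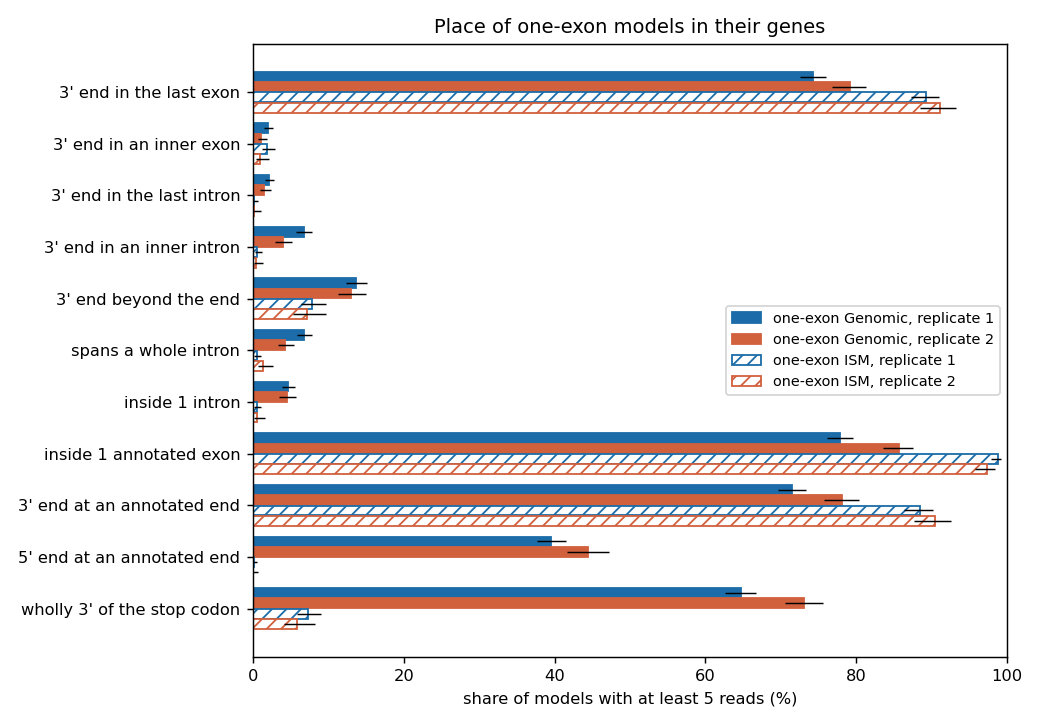
Share of models (%) in each place, as bars with 95% Wilson intervals for counting error, for single-exon Genomic models (filled) and single-exon ISM models (hatched) of both libraries, all with at least 5 reads; the classes overlap. The 3′ end lay in the last exon for 74.3% and 79.2% of the Genomic models, and 39.6% and 44.4% of them also began at an annotated transcript end.

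Single-exon models of the class ISM, short for incomplete splice match and given to models that hold part of an annotated transcript, are the nearest kind in the same tables, and 1064 and 544 of them had at least 5 reads. Their 3′ end lay in the last exon for 89.3% and 91.2%. Their place against the stop codon differed. Of models with a coding reference transcript, 64.7% and 73.2% of the Genomic ones lay wholly 3′ of the stop codon, compared with 7.32% and 5.88% of the ISM ones, while 91.8% and 93.7% of the ISM models reached into the coding region and 31.7% and 24.6% of the Genomic ones did. No test over libraries was run on these shares, since an exact permutation test of 2 values against 2 cannot go below p = 0.333. The difference had the same direction in both libraries.

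A start at an annotated end set the single-exon Genomic models apart from the ISM models in description. Their 3′ end was exactly an annotated transcript end in 1684 models of replicate 1 (71.5%) and 977 of replicate 2 (78.2%), and the ISM models had 88.4% and 90.4%. Their 5′ end was also exactly the end, not the start, of an annotated transcript of the gene in 932 models (39.6%, interval 37.6% to 41.6%) and 555 models (44.4%, 41.7% to 47.2%). The ISM models had 1 such model of 1064 in replicate 1 and 0 of 544 in replicate 2. A 5′ end at an annotated transcript start was found in 6.80% and 3.04% of the Genomic models. Both ends were annotated transcript ends in 33.9% and 40.4%, or in 30.9% and 37.7% of the models longer than 1 base, which thus run from an upstream annotated end to a downstream one. Sparc, which encodes a collagen-binding matrix protein, is an example, with an identical 887-base model at chr11:55394500-55395386 (-) in both libraries, of 266 and 193 reads. Ywhaq, which encodes a 14-3-3 adaptor protein, had an identical model of 262 bases between 2 annotated ends, with 163 and 190 reads. These are ends of deposited models, and the ends of single reads were not analysed here.

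Models of 1 gene could also abut. The 5′ end of 102 models of replicate 1 and 39 of replicate 2 was the 3′ end of another single-exon Genomic model of the gene in the same library, which is 4.33% and 3.12%. Star had such a pair in replicate 1, with a model of 795 bases and 795 reads ending at position 25813413 of chromosome 8 and a model of 1887 bases and 671 reads starting there. Zbtb7a, which encodes a zinc-finger repressor, showed a chain in each library. In replicate 1 its models met at 81149373 and 81151264 of chromosome 10, and in replicate 2 they met at 81149592 and 81151611, so the joints differed between the libraries. The A-rich stretch printed above follows the joint at 81151611.

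Deposited lengths ran from 1 base to 7272 in replicate 1 and to 7727 in replicate 2. The median was 881.5 bases in replicate 1 and 534.5 in replicate 2, a mean of 708 ± 245 (SD, n = 2), with quartiles of 230.25 and 1764.75 in replicate 1 and of 205 and 1301.25 in replicate 2. Models of at least 1000 bases made up 46.4% and 32.3%. A length of exactly 1 base was deposited for 143 models of replicate 1 and 75 of replicate 2, with 2814 and 1735 reads, and 79.0% and 82.7% of these single positions were annotated transcript ends. No ISM model with 1 exon had that length. A deposited length is therefore not the length of its reads. Fads2, a fatty acid desaturase, led the 1-base models, and both libraries had it at the same position with 412 and 281 reads, chr19:10062765-10062765 (-).

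**Figure D2:**
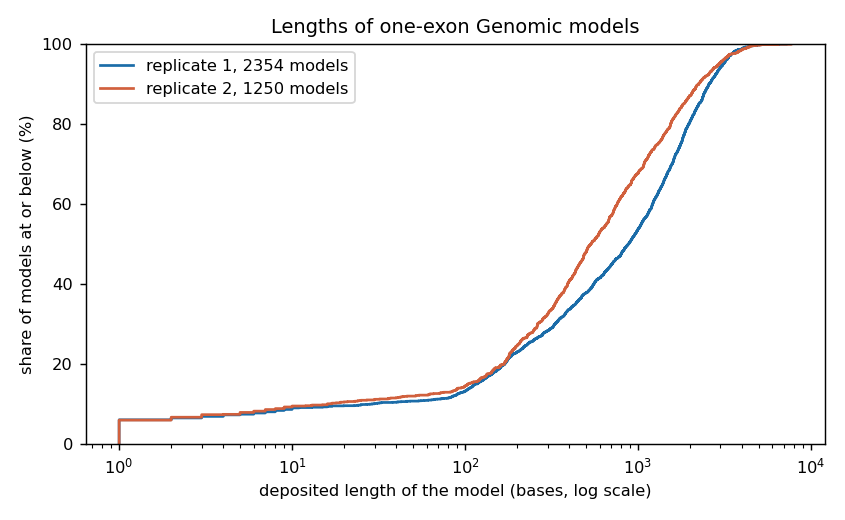
Cumulative share of single-exon Genomic models (%, vertical) against deposited length in bases (horizontal, log scale), 1 line for each library. The step at the left edge is the 143 and 75 models of 1 base, and the medians are 881.5 bases in replicate 1 and 534.5 in replicate 2.

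The models were spread over many genes. They lay in 2198 genes of replicate 1 and 1208 of replicate 2, and 2054 and 1169 of these genes had a single model. Protein-coding genes held 95.5% and 97.0% of the models. Genes with more reads had a model more often, a count that the minimum of 5 reads acts on, from 10.1% of genes with 5 to 19 reads to 50.4% of those with at least 1000 in replicate 1, and from 8.35% to 45.8% in replicate 2. Among genes with at least 20 reads, the last exon of the reference transcript had a median of 1406 bases where the gene had a model and 905 where it had none in replicate 1, and 1328.5 and 740.5 in replicate 2. The median was 9 reads per model in replicate 1 and 8 in replicate 2. At the limit of the minimum, 402 and 240 models had exactly 5 reads and 581 and 373 single-exon Genomic models had 4.

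Without Cyp11a1, the models held 4.00% of the reads of annotated genes in replicate 1 (44782 of 1120752) and 5.74% in replicate 2 (22832 of 397438), a mean of 4.87% ± 1.24 (SD, n = 2). The 10 most read genes held 14.5% and 21.8% of these reads. Cyp11a1 is left out of sums because of 1 model. Cyp11a1 encodes the enzyme that cleaves the side chain of cholesterol in the first step of steroid synthesis. In replicate 1 its model at chr9:58025096-58027023 (+) had 11553 reads, 48.5% of the gene's reads, and spanned 3 introns within 1928 bases, of which 1172 lay outside exons of the reference transcript. In replicate 2 a model that overlaps it by at least 50% of each, of 1946 bases and 13213 reads, carried the class ISM, and the gene had 2 single-exon Genomic reads. The same stretch of Cyp11a1 was thus read in both libraries under different class names. In the sequence printed above, the replicate 1 model ended 16 bases after its hexamer.

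Steroid synthesis is the main task of the adrenal cortex. Of 15 genes of the pathway, 12 had a model in replicate 1, 9 in replicate 2 and 13 in at least 1 library. A model in at least 1 library was found for 15.2% of all 16945 genes with a read and for 38.9% of the 3694 genes with at least 20 reads in each library, and the share depends on reads, as given above. The models held 6.28% and 11.6% of the pathway's reads without Cyp11a1. Hsd3b1, the 3-beta-hydroxysteroid dehydrogenase, had a model of 664 bases and 977 reads in replicate 1, ending at the annotated end, and a model of 3827 bases and 1227 reads in replicate 2 that ran 2657 bases past the end of the gene. Star, which brings cholesterol into mitochondria, had models of 795, 671 and 73 reads in replicate 1 and of 246 and 17 in replicate 2. The least read of these, of 3950 bases with 5 whole introns, had identical ends in both libraries, and the place of the 795-read model was taken in replicate 2 by an ISM model of 295 reads.

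Cyp11b1, the 11-beta-hydroxylase that makes corticosterone, had its leading model in the last exon with 607 reads in replicate 1 and 369 in replicate 2, both ending at the same base, 576 bases short of an annotated end. In each library a further Cyp11b1 model ran past the gene, by 391 bases with 56 reads in replicate 1 and by 2577 bases with 81 reads in replicate 2. Cyp21a1, the steroid 21-hydroxylase, had 450 reads in replicate 1 in a model that began at the last base of the gene and ran 1538 bases past it, and 436 reads in replicate 2 in a model of 447 bases that ended at that same base. For Cyp21a1 the models of the libraries met at that base and otherwise lay on opposite sides of the gene's end. Cyp21a1 has a near-identical pseudogene copy, so how its reads were assigned is uncertain. Over all models, 82 of replicate 1 and 18 of replicate 2 ran past the annotated end of their gene, by a median of 844 and 1088 bases.

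**Figure D3:**
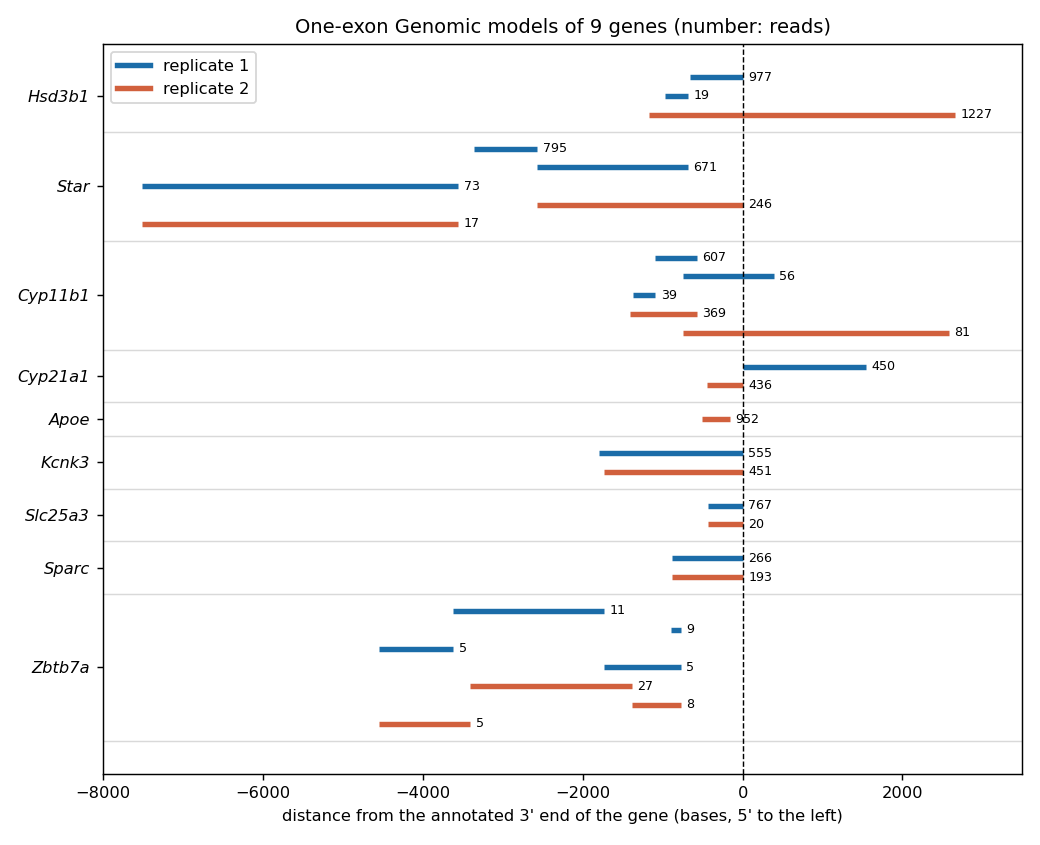
Single-exon Genomic models with at least 5 reads of 9 genes, drawn as lines against the distance from the annotated 3′ end of the gene in bases (dashed line at 0, upstream to the left), in blue for replicate 1 and orange for replicate 2, with the reads of each model beside it. Sparc, Slc25a3 and the long Star model have the same ends in both libraries, whereas Hsd3b1 and Cyp21a1 do not.

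Other much-read genes had their models in the last exon. Kcnk3, which encodes the potassium channel TASK-1 of adrenal cortex cells, had 555 reads in a model of 1791 bases in replicate 1 and 451 reads in one of 1730 bases in replicate 2, with the same 3′ end. Slc25a3, the mitochondrial phosphate carrier, had 767 and 20 reads in an identical model of 438 bases. Mrpl30, a mitochondrial ribosomal protein gene, had 256 and 200 reads, Polr2l, a subunit gene of RNA polymerases, 192 and 203 in an identical model of 301 bases, and Usp50, named after its values were seen, 236 and 113 in an identical model of 259 bases. The model of Slc25a3 was read far less in replicate 2, and those of the other genes were nearer in raw reads. Replicate 2 had 414588 reads on annotated genes against 1144572, so near raw reads are not near levels. The share of the gene's reads was higher in replicate 2 for Polr2l (38.0% and 57.0%) and Kcnk3 (26.8% and 34.4%). Both passed Fisher's exact test, with adjusted p of 1.08e-06 and 4.91e-05.

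Models that spanned a whole intron had a counterpart in the other library for 23 of 160 in replicate 1 (14.4%) and for 27 of 53 in replicate 2 (50.9%), by overlap of at least 50% of each, against 22.3% and 41.9% of all the models. Of those with a whole intron, 53.8% and 69.8% spanned exactly 1, and the most was 10 introns in replicate 1 and 7 in replicate 2. Tsc22d1, a leucine-zipper factor gene, had 177 reads across 2 introns in replicate 1, Map1lc3a, an autophagy gene, 175 across 2, and Slc25a5, the adenine nucleotide carrier, 250 across 1, and all 3 genes had 0 single-exon Genomic reads in replicate 2, which allows up to 1.36%, 1.19% and 0.347% of their reads. In that library they had 53, 32 and 608 single-exon ISM reads, but no single-exon model there overlapped theirs by at least 50% of each. Those ISM reads are therefore not shown to be counterparts. Gadd45gip1, a mitochondrial ribosome gene, had 203 reads across 1 intron in replicate 2 and 2 in replicate 1. Pcx, pyruvate carboxylase, had 200 across 1 intron in replicate 2 and 1 in replicate 1. In replicate 1 these genes had 144 and 170 single-exon ISM reads. By the same overlap, the Pcx model had an ISM counterpart of 170 reads there, and the Gadd45gip1 model had none. Ubb, a polyubiquitin gene, had an identical model of 1619 bases across 1 intron in both libraries, of 82 and 44 reads, and the 3950-base model of Star was identical in both as well.

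Models wholly inside an intron had a median length of 290 bases in replicate 1 and 188.5 in replicate 2. Jarid2, which encodes a partner of the Polycomb complex PRC2, had the most reads among them in replicate 1, 301 in a model of 378 bases at chr13:44869572-44869949 (+) and in replicate 2 it had 121 in a model of 249 bases with the same start. A 1-base model of AC149090.1, a gene on the scaffold JH584304, had more in replicate 2, with 127. That base lay in an intron of the reference transcript but was itself an annotated transcript end of the gene. The Jarid2 models held 98.0% and 97.6% of all Jarid2 reads. AC154200.1, a long intergenic noncoding gene, had all of its 116 and 60 reads in an identical model of 280 bases. Gm45233 had all of its 120 and 20 reads in an identical model of 202 bases, of which at least 50% lay in exons of Etfb, the beta subunit of the electron transfer flavoprotein, on the same strand. For Gm45233 the assignment of reads to a gene is therefore uncertain. Abi1, an actin regulator, had 129 reads over 2265 bases and 14 reads over 1854, and Gm7247 had 6 and 61. At least 50% of the model lay in exons of another gene on the same strand for 52 models of replicate 1 and 27 of replicate 2. Fgfr2, a fibroblast growth factor receptor gene, had models upstream of its reference transcript, among them 1 of 11 reads and 725 bases that lay in exons of Fam53b by at least 50%. Bhlhb9 had its models, of 7 and 6 reads, in exons of Gprasp1 in the same way.

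The antisense genes Gm43126 and Gm20659 consisted of such models alone, and they were named after their sequences were seen. Gm43126 had all of its 203 and 109 reads in an identical model of 3044 bases that ran 2672 bases past the end of the gene and stopped before the A run printed above. Gm20659 had all of its 51 and 38 reads in models of 1301 and 1302 bases that ran 1090 and 1091 bases past its end. No source used here states whether the counting used strand, so reads of such genes and of their partners cannot be told apart.

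Both libraries had a model at the same place, with at least 50% overlap of each and the same strand, for 524 models. These were 22.3% of the models of replicate 1 and 41.9% of those of replicate 2. In 236 pairs start and end were identical, and in 420 pairs the 3′ end was. A further 22.2% of the models of replicate 1 and 10.1% of those of replicate 2 had a single-exon Genomic counterpart with fewer than 5 reads, and 5.95% and 9.92% had a single-exon ISM counterpart. No single-exon model with such an overlap was found in the other library for 49.6% and 38.1%, while any overlap with a model of at least 5 reads was found for 36.6% and 67.1%. The share found was larger for models with more reads, from 10.7% of models with 5 to 9 reads to 49.3% of those with at least 50 in replicate 1, and from 35.7% to 52.4% in replicate 2. At the depth of replicate 2 a model needs 12.1 reads per 1000000 reads of annotated genes (CPM) to reach 5 reads, and in replicate 1 it needs 4.37. At the level of genes, 828 genes had a model in both libraries, 37.7% of the genes of replicate 1 and 68.5% of those of replicate 2.

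Over the 524 pairs, levels in CPM had a Spearman rho of 0.584 across models, which share libraries and are not independent replicates. In 53.8% of pairs the levels were within 2-fold. The median log2 ratio of replicate 2 to replicate 1 was 0.83 on the CPM scale. A pair enters only with at least 5 reads in each library, which sets a higher minimum CPM in replicate 2, and the part of that minimum in the ratio was not tested.

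**Figure D4:**
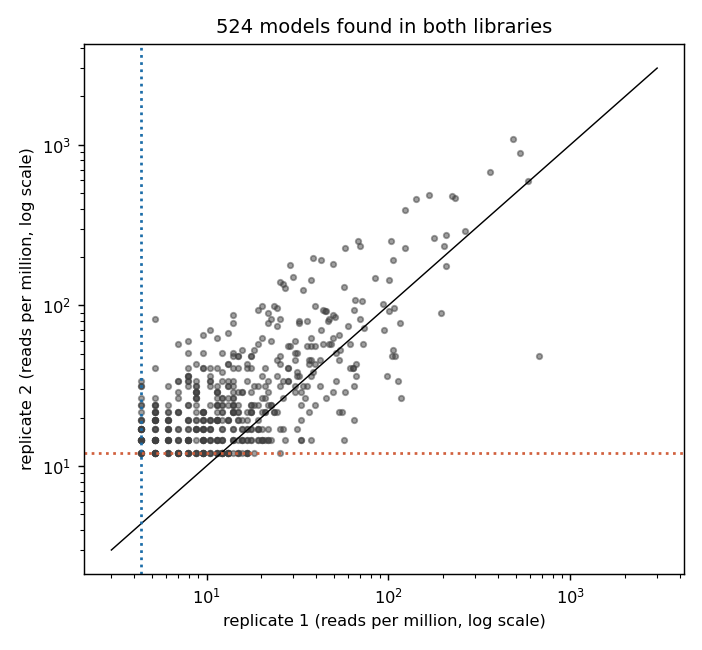
Level of the 524 models found in both libraries, in CPM on log axes, replicate 1 horizontal and replicate 2 vertical, 1 point for each pair. The solid line marks equal levels and the dotted lines the minimum of 5 reads, 4.37 CPM in replicate 1 and 12.1 CPM in replicate 2. More points lie above the line than below it, and the median log2 ratio is 0.83.

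The share of a gene's reads in single-exon Genomic models was set against that of the other library by a two-sided Fisher's exact test per gene. Over 3694 genes with at least 20 reads in each library, 521 differed at an adjusted p under 0.05 (Benjamini-Hochberg), which is 14.1%, with 389 higher (10.5%) and 132 lower (3.57%) in replicate 2. Of these, 483 had a model with at least 5 reads, 351 higher and 132 lower, among 1438 such genes tested. Nothing is read from the latter count, since the minimum of 5 reads used the same reads. The median share over all tested genes was 1.35% in replicate 1 and 1.58% in replicate 2. The test compares these 2 libraries and not mice. With single-exon ISM reads joined to the Genomic ones, a setting chosen after seeing the data, 276 of the 521 genes passed in the same direction, and 85 turned direction, 26 of them past the threshold.

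Of the 8 genes with a model and the widest differences, 7 had single-exon ISM reads in replicate 1. Gabarapl1, an autophagy gene, had 0 of 793 reads in single-exon Genomic models in replicate 1, which allows up to 0.378%, and 509 of 550 in replicate 2 (92.5%). In replicate 1 it had 301 single-exon ISM reads, and both classes together were 38.0% and 92.5%. Apoe, the lipid-carrying apolipoprotein E gene, had 0 of 2728 reads (up to 0.110%) and 952 of 1641 (58.0%), and both classes together were 18.2% and 58.0%. For both genes the difference was thus smaller, and in the same direction, with the classes joined. By overlap of at least 50% of each, the Gabarapl1 model had an ISM counterpart of 301 reads in replicate 1. The Apoe model had no single-exon counterpart there, so the 497 single-exon ISM reads of Apoe are not shown to be counterparts. Acaca, the acetyl-CoA carboxylase gene, went from 1 of 30 reads to 44 of 50 (adjusted p = 6.5e-13, Fisher's exact test). With the classes joined it was 83.3% and 88.0% and no longer passed Fisher's exact test (adjusted p = 1). Rpl4, a ribosomal protein gene, had 9.32% and 9.25% with the classes joined and lost its call too (adjusted p = 1, Fisher's exact test). Gtf3c5, a transcription factor IIIC subunit gene, also no longer passed Fisher's exact test with the classes joined (adjusted p = 0.288). Its joined share was still 26.9 points higher in replicate 2, on 20 and 26 reads of the gene. By the same overlap the Gtf3c5 model had no single-exon counterpart in replicate 1. The 10 single-exon ISM reads of Gtf3c5 there are therefore not shown to be counterparts.

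Other genes passed the test also with the classes joined. Klf9, a zinc-finger factor gene that responds to glucocorticoids, had 33 of 197 reads (16.8%) and 23 of 24 (95.8%), with an adjusted p of 5.21e-13 in Fisher's exact test, or 1.12e-11 with the classes joined. BC029722 had 54 of 208 (26.0%) in a model of 637 bases and 22 of 23 (95.7%) in a model of 1 base. Slc25a3 was lower in replicate 2, with 35.7% and 5.65% of its reads (adjusted p = 2.16e-34, Fisher's exact test). Some much-read genes did not pass. Jarid2 had 98.0% and 98.4% and Mrpl30 had 71.1% and 79.7%, with adjusted p of 1 and 0.107 in Fisher's exact test.

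**Figure D5:**
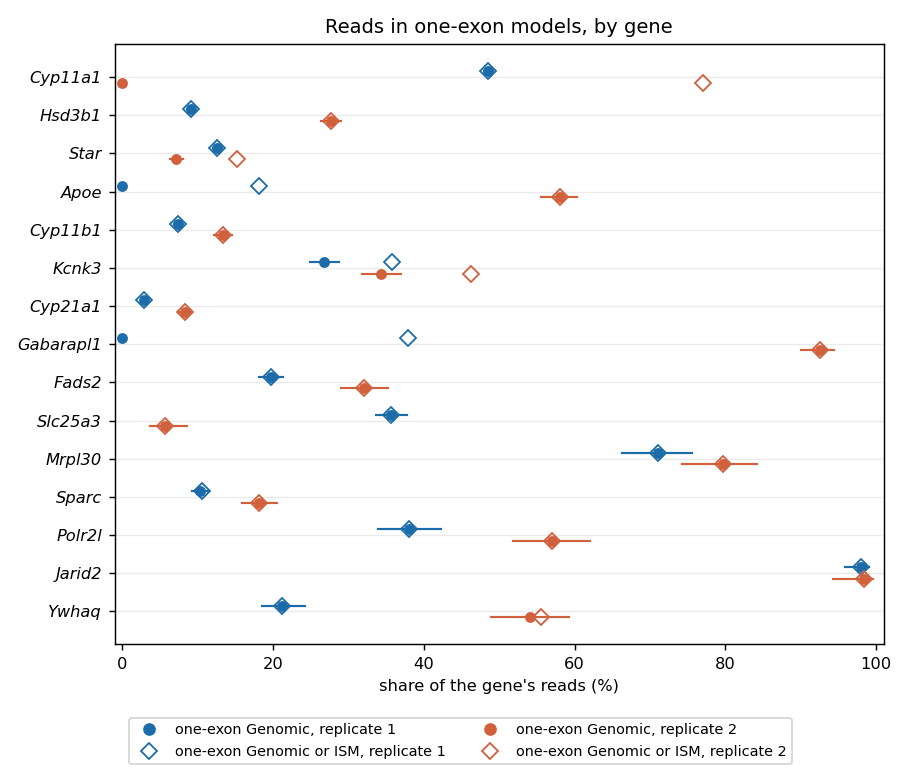
Share of the reads of a gene (%, horizontal) in single-exon Genomic models (filled circles, with 95% Wilson intervals for counting error) and in single-exon Genomic or ISM models (open diamonds), for Cyp11a1 and 14 of the 15 genes with the largest mean share of model reads. Circle and diamond lie apart for Cyp11a1 in replicate 2 (0.0117% and 77.1%), for Star in replicate 2, for Kcnk3 in both libraries and for Apoe and Gabarapl1 in replicate 1.

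The backgrounds for other gene lists are as above. A model was held by 15.2% of genes with a read and by 38.9% of tested genes, those with at least 20 reads in each library. Of tested genes 14.1% were called, 10.5% higher and 3.57% lower in replicate 2. Counts of list genes with a model include genes too little read to be tested, so 38.9% is no direct match for them. Of 38 splicing factor genes, 21 had a model in at least 1 library, and 6 of 25 tested had a higher share in replicate 2 and 1 a lower one. Ddx5, an RNA helicase gene, had 75 of 872 reads (8.60%) and 79 of 274 (28.8%), with an adjusted p of 1.51e-13, and Snrnp70, a U1 snRNP protein gene, had 42 of 221 and 27 of 34 (79.4%), with an adjusted p of 3.54e-10, both by Fisher's exact test. In the steroid synthesis list all 15 genes were tested, and 7 had a higher and 4 a lower share in replicate 2. With the ISM class joined the counts were 9 and 1, as Cyp11a1 (48.6% and 77.1%) and Star (12.6% and 15.3%) then had the higher share in replicate 2. Over all 3694 tested genes the joined counts were 393 higher and 90 lower. Calls also depend on reads, and without joining 340 of 1655 genes with at least 50 reads in each library were called. The median share of Genomic reads in the steroid synthesis list was 6.27% and 7.21%.

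Of 19 medulla genes, 4 had a model, namely Th, Scg2, Pnmt and Cyb561. Of 9 tested, 1 had a higher and 1 a lower share in replicate 2. The higher one was Th, with 22 of 1921 reads (1.15%) and 24 of 479 (5.01%), and an adjusted p of 1.88e-05 in Fisher's exact test. The lower one was Pnmt, with 39 of 557 (7.00%) and 0 of 165 (up to 1.82%), and an adjusted p of 0.000649 in Fisher's exact test. With the ISM class joined Pnmt turned direction, to 7.00% and 15.2%. Scg2, a secretory granule gene, had 14.8% and 10.1%, which did not pass Fisher's exact test (adjusted p = 0.137). Of 21 cytosolic ribosome genes, 7 had a model, and the median share in the list was 0.165% and 0%. Of 9 nuclear long noncoding RNAs, 3 had a model. Xist, which coats the inactive X chromosome, had all of its 31 and 21 reads in single-exon Genomic models, 29 and 20 of them in an identical model of 466 bases. Models were found in 6 of 12 adipocyte genes, in 1 of 12 skeletal muscle genes, in 2 of 8 endothelial genes and in 2 of 8 macrophage genes. Genes read enough to be tested numbered 9, 0, 3 and 3 in these lists, and 9 among the medulla genes. In bulk tissue, a lower count of cells of a type and less RNA per cell cannot be told apart.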

How the data were processed

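Long-read RNA-seq of 2 libraries of mouse adrenal gland was used. The authors deposited raw counts, whole reads for each transcript model without normalization, and models with at least 1 read are listed. Other deposited values used are exon numbers, lengths in bp and model positions. Per the labels, the ENCODE long-read pipeline for mouse was used. Per the file headers and notes, reads were aligned to mm10, compared with GENCODE M21 and classed by TALON, each library on its own. No source used here names the aligner, versions or filters.

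Models, positions and places were computed with Python 3.11.15, numpy 2.4.6 and scipy 1.17.1. The reference transcript was the annotated one with the most reads over both libraries. CPM are reads per 1000000 reads of annotated genes. Sequences came from GENCODE M21 transcripts, so a window was read only where it lay in 1 annotated exon. That limit, and the choice of printed sequences, depart from the plan and were set after values were seen. Fisher's exact test used Benjamini-Hochberg adjustment over genes with at least 20 reads in each library, and its script was tested on simulated data. Shares have 95% Wilson intervals, and 3 reads are the floor of a count of 0.

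The members and the gene lists were chosen with earlier results of these data known. Named genes were Cyp11a1, the 15 with the highest mean share of model reads, the 6 with the most models, with the most reads inside 1 intron, across a whole intron, and with the longest models in both libraries, the 8 widest called differences, and up to 5 per list. Not every gene of this rule is given in the text, and 1 of the 15 is not reported here.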

Additional observations from a re-analysis of the deposited data

How the results depend on the processing

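Of 60 alternatives on shares, lengths and counts, 37 stayed within their limit and 23 did not. The limit was the spread of the libraries, 1.5 times a count or, for the share found in the other library, its Wilson interval. Alternatives without 1 library had to stay within the limit, because each of 2 values lies less than 1 SD from their mean. The number of models of replicate 2 at its own minimum in CPM could not change either. The 37 therefore include alternatives that could not fail. With the ISM class joined, the difference in share, replicate 2 minus replicate 1, turned direction for 10 named genes, to 28.5 points for Cyp11a1, 2.69 for Star, 46.9 for Slc25a5, 14.3 for Tsc22d1, 1.65 for Map1lc3a, 6.74 for Gramd1b, 8.15 for Pnmt, 8.35 for Rplp1, -6.34 for Adipoq and -0.072 for Rpl4. The order of the libraries in the share inside 1 intron, 4.59% and 4.48%, also turned, to 3.95% and 4.72% at 10 reads, 5.31% and 5.44% with all annotated transcripts and 4.71% and 4.73% without models under 50 bases. The number of models depended on the minimum of reads, with 3876 and 2255 at 3 reads, 1114 and 508 at 10 reads in replicates 1 and 2, and 742 in replicate 1 at the CPM that 5 reads give in replicate 2. The summed share was 6.81% with all models of at least 1 read. With all annotated transcripts of a gene together, the 3′ end lay in a last exon for 81.5%, and 5.38% of the models lay inside 1 intron. That last share was 4.10% weighted by reads, 4.34% at 10 reads and 4.72% without models under 50 bases. The share found in the other library was 36.6% and 67.1% at any overlap, 31.0% and 58.3% by 3′ ends within 50 bases, 44.4% and 52.0% against single-exon Genomic models of at least 1 read, 50.4% and 61.9% against any single-exon model, and 10.03% and 18.9% by identical ends. A-rich sequence was found for 14.9% at a limit of 10 A. Genes that differed in share numbered 340 of 1655 at 50 reads, fewer being tested, and 483 of 3694 with the ISM class joined.

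Without replicate 1 or replicate 2 the values are those of the other library, 4.00% to 5.74% for the summed share and 534.5 to 881.5 bases for the median length. Alternatives on 1-base and short models, identical ends, any single-exon model, the 10 most read genes, joined classes and a difference of 10 points were chosen after seeing the data. No paired analysis was possible because the libraries form 1 group. With fewer reads, replicate 2 shows fewer models at 5 reads, and a model found in 1 library is not shown to be missing from the other. The spread rests on 2 libraries.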
